A study of Mus musculus with 3 samples.

Results

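The granule protein and maturation genes of neutrophils were followed in tumours grown from 4T1 cells, a mouse mammary carcinoma line. The 10 genes, Mpo, Elane, Ltf, Camp, Ngp, Lcn2, Cd177, Ly6g, Retnlg and Anxa1, were found by symbol among the 55357 genes of both count matrices, and each matched 1 row. The series asks, by its title, how neutrophils take part when Cpt1a, a gene of mitochondrial fatty acid import, is targeted in a tumour. One group was the 4T1-sgVC tumour, labelled WT and grown from cells with a control guide, and the other was the 4T1-sgCPT1A tumour, grown from cells with a guide against Cpt1a and labelled as a Cpt1a knockdown. Both came from female mice 8 to 10 weeks old that were kept for 8 days with tumours, and both were taken as whole tumour with no sort described. The guide acts in the injected cells, so neutrophils in either tumour came from the host. How many tumours went into a library is not given in the sources used here. Each group had 1 library with a matrix, and a further sgCPT1A sample of the series had no matrix of its own here and was not analysed. With 1 library per group no difference below has a replicate check, no test was made, and all intervals are exact 95% intervals that cover counting error only.

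Neutrophils fill their granules in order while they mature in the bone marrow. Primary granules carry the enzymes made first, among them myeloperoxidase (Mpo) and neutrophil elastase (Elane). Secondary granules carry lactoferrin (Ltf, an iron-binding protein), cathelicidin (Camp, an antimicrobial peptide), neutrophilic granule protein (Ngp) and lipocalin 2 (Lcn2, which binds bacterial iron carriers). Tertiary granules carry gelatinase (Mmp9) and are made last. The mRNAs of granule proteins are made mostly before a neutrophil leaves the marrow, and blood neutrophils carry the chemokine receptor Cxcr2, the surface protein Ly6g and the resistin-like secreted protein Retnlg.

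Ltf, Camp and Ngp lie close together on chromosome 9, and in these tumours their UMIs lay in few neutrophils. For these genes, and for Lcn2 and Retnlg, which had opposite differences between the tumours, the 250 bases before the RefSeq start are shown, from the RefSeq promoter windows on GRCm38.p6. Capitals mark a match to the C/EBP motif TTGCNNAA or its reverse TTNNGCAA. C/EBP factors are known regulators of granule genes.
Ltf, chr9:111019042-111019291, plus strand: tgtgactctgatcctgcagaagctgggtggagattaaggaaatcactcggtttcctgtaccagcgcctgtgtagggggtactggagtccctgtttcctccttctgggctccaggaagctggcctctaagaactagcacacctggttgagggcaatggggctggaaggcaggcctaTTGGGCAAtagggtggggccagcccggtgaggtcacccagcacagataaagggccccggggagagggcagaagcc
Camp, chr9:109849457-109849706, minus strand: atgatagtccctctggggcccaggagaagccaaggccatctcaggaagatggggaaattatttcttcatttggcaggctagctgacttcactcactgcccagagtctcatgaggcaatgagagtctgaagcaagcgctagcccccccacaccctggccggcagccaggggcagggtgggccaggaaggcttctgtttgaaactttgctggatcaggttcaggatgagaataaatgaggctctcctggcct
Ngp, chr9:110419558-110419807, plus strand: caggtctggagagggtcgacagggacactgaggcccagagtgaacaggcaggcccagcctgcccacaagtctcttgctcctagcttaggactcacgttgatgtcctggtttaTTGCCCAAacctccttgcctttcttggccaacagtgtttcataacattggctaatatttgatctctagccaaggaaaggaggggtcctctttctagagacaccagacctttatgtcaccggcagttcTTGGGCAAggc
Lcn2, chr2:32387740-32387989, minus strand: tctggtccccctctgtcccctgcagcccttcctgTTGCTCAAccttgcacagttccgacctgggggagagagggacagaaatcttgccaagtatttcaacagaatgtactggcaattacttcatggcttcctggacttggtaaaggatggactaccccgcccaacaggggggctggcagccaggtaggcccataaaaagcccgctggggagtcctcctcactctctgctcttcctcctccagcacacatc
Retnlg, chr16:48872358-48872607, plus strand: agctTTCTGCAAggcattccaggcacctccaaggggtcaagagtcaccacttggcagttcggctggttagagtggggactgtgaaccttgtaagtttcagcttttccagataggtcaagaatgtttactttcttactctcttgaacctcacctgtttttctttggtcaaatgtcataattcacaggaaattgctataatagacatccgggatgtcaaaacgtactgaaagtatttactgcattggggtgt
Ltf had 1 match, which begins 75 bases before the start, and Ngp had 2, at 138 and 11 bases. Lcn2 had 1 match at 216 bases and Retnlg 1 at 246 bases, and Camp had none in this window. Of the 10 genes, all with a RefSeq window, 6 held the C/EBP motif: Ltf, Ngp, Lcn2, Retnlg, Ly6g and Anxa1. Of all 32851 windows of the same length, 9.56% held it. The PU.1 motif GAGGAAGT or its reverse ACTTCCTC was in the windows of Mpo, Elane and Ly6g, 3 of the 10, and in 2.44% of all windows. No match overlapped one of the other motif. A match is a description of letters and not a binding site.

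The sgVC library was the deeper one, with 155948212 UMIs (unique molecular identifiers, counted molecules) over 9890 barcodes, a median of 10809. For sgCPT1A the total was 35557125 over 7198 barcodes, a median of 2786. The matrices had 18 barcodes in common. Cells were clustered without the 10 genes, the other granule and maturation genes and Cxcr2, and named from markers. In the 3 clusters called neutrophil-like all 6 neutrophil markers were detected, S100a8 and S100a9 among them. These clusters held 1797 of 9319 kept sgVC cells (19.3%) and 5137 of 6743 sgCPT1A cells (76.2%), with median depths of 1464 and 2631 UMIs. Macrophage, T cell, mast cell and fibroblast marker lists summed to 1.74 to 259 CPM (the UMIs of a gene per 1000000 UMIs of the class) in neutrophil-like cells, against 80583 and 55511 CPM for the neutrophil list. The eosinophil list summed to 8.22 CPM in sgVC and 8.42 CPM in sgCPT1A, with 2 and 3 of its 4 markers detected. Of these markers, eosinophil peroxidase (Epx) was at 0 in both. Monocyte and macrophage-like cells numbered 1271 and 256. T-like cells, which include a cytotoxic cluster, numbered 937 and 578, and serve below as a background level. Free RNA from lysed cells or cells that share a droplet can give such a level, and these were not told apart. That level differed between libraries, since S100a8 in T-like cells was 57.0 CPM in sgVC against 459.8 in sgCPT1A. Cpt1a itself was at 17.4 CPM in the tumour-like cells of sgVC and at 25 CPM in the 130 of sgCPT1A (29 UMIs), and 3′ counts do not read a guide's cut. These are different cells under one name: 122 of the 130 lay in cluster 10, led by Igkc, Krt19, Ptn and Prlr, which held 192 of the 4651 in sgVC.

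The primary granule genes were at or near 0 in tumour neutrophils. Mpo (ENSMUSG00000009350, chromosome 11, 87793581 to 87804413, plus strand, overlapped by the antisense gene Gm11505) had 0 UMIs in sgVC neutrophil-like cells and 2 in sgCPT1A. Elane (ENSMUSG00000020125, chromosome 10, 79886247 to 79888215) had 0 in both. A count of 0 allows up to 3 counts, which is 1.07 CPM in sgVC and 0.218 CPM in sgCPT1A. Of 11 primary granule genes, only cathepsin C (Ctsc, which activates the granule proteases) and the protease inhibitor Serpinb1a reached 20 UMIs over both libraries. Ctsc was at 48.9 CPM in sgVC against 18.4 CPM in sgCPT1A, and Serpinb1a at 10.4 and 2.90 CPM. Both were lower in sgCPT1A, as were 35.4% of all genes counted in this comparison. The other proteases of this granule, Prtn3 and Ctsg, had 7 and 0 UMIs in sgVC and 3 and 2 in sgCPT1A.

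Below, a gene is called higher or lower where its summed CPM differs by at least 1.5-fold and it has at least 20 UMIs over both sides. Of the 10 genes, 8 could be counted in neutrophil-like cells (all but Mpo and Elane). In sgCPT1A against sgVC, 3 were higher (Ltf, Camp and Lcn2) and 5 were lower (Ngp, Cd177, Ly6g, Retnlg and Anxa1). Of all 9298 genes counted in this comparison, 17.3% were higher and 35.4% were lower, and the median gene was at a log2 ratio of -0.30. Relative to that median the 8 genes kept their directions, from -3.50 for Retnlg to 2.20 for Camp. The plot of summed levels by cell class shows these genes beside the other classes.

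**Figure D1:**
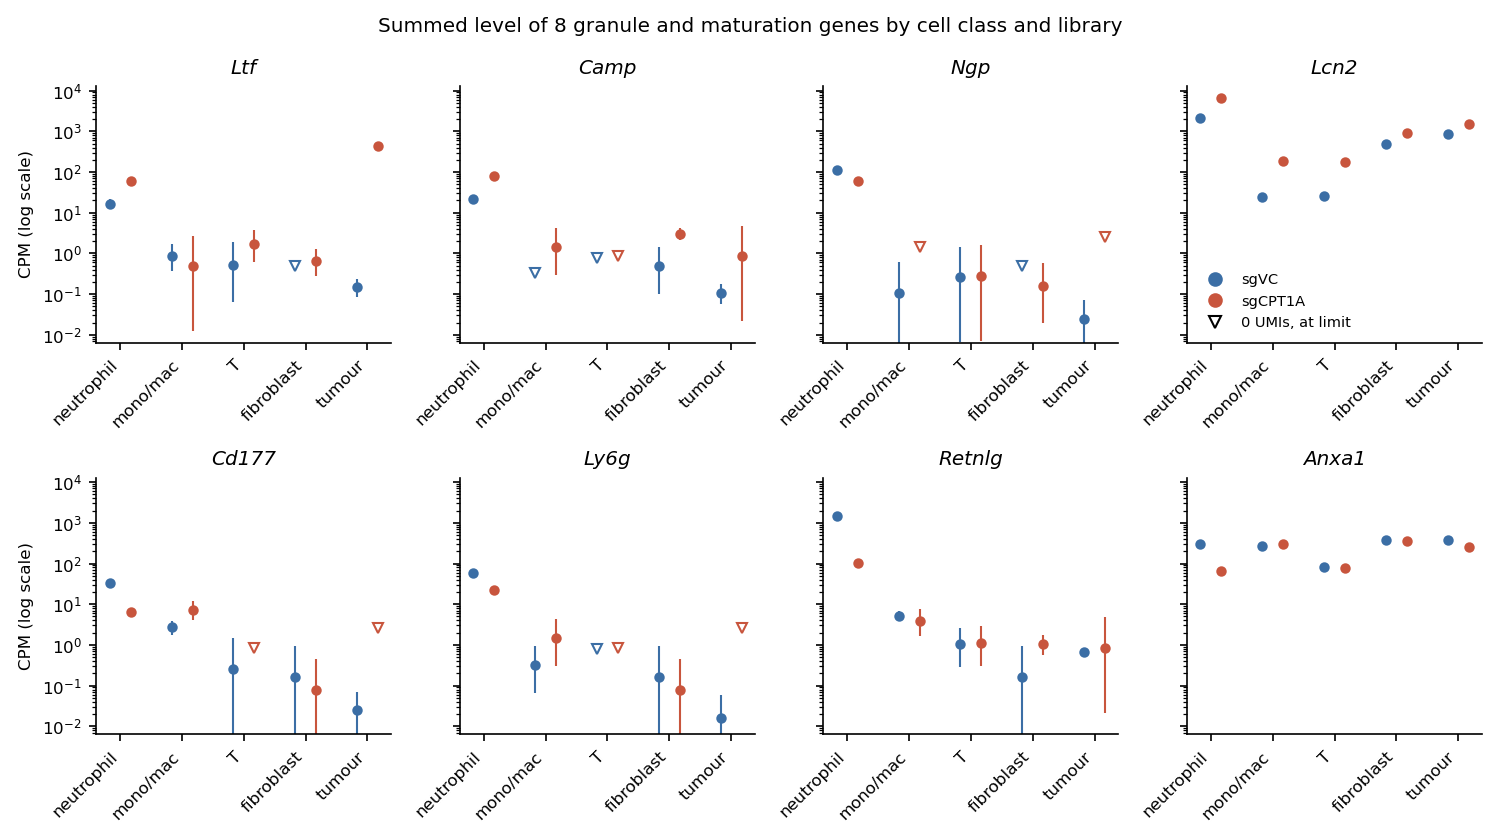
Summed CPM (log axis) of 8 genes in 5 cell classes of the sgVC and sgCPT1A libraries, 1 library per group. Points are summed levels, bars are exact Poisson 95% intervals, which run off the axis for genes with very few UMIs, and open triangles stand at the limit that 0 UMIs allow. Retnlg stands at 1445 CPM in sgVC neutrophil-like cells and at 104 CPM in those of sgCPT1A, and Lcn2 at 2081 and 6698 CPM.

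Lcn2 was the most strongly counted of the secondary granule genes. It (ENSMUSG00000026822, chromosome 2, 32384633 to 32388252, minus strand) had 5824 UMIs in sgVC neutrophil-like cells, 2081 CPM (2028 to 2135), and 92264 UMIs in sgCPT1A, 6698 CPM (6655 to 6741). The sgCPT1A level was 3.22-fold higher, a log2 ratio of 1.69 (1.65 to 1.73). With every cell thinned to 1000 UMIs, 35.1% of sgVC and 64.5% of sgCPT1A neutrophil-like cells had a Lcn2 UMI, leaving out 329 and 462 shallower cells. Without thinning the shares were 37.8% and 70.6%. In thinned T-like cells the share was 1.40% in sgVC and 6.61% in sgCPT1A.

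Ltf, Camp and Ngp were rare, and 1 cell carried much of what was counted in sgCPT1A. Ltf (ENSMUSG00000032496, chromosome 9, 111019271 to 111042767, plus strand) was at 16.4 CPM (46 UMIs in 34 cells) in sgVC and 60 CPM (826 UMIs in 448 cells) in sgCPT1A, a log2 ratio of 1.87 (1.44 to 2.33). Camp (ENSMUSG00000038357, chromosome 9, 109847379 to 109849617, minus strand) was at 21.4 CPM (60 UMIs in 14 cells) and 80.0 CPM (1102 UMIs in 253 cells), a log2 ratio of 1.90 (1.52 to 2.30). Ngp (ENSMUSG00000032484, chromosome 9, 110419747 to 110423012, plus strand) was at 112 CPM (313 UMIs in 43 cells) and 59.7 CPM (822 UMIs in 46 cells), a log2 ratio of -0.91 (-1.10 to -0.71). Ltf and Camp were found in a larger share of sgCPT1A than of sgVC cells, and Ngp in a smaller share. After thinning, Ltf was in 1.36% of sgVC and 3.72% of sgCPT1A cells, Camp in 0.545% and 2.44%, and Ngp in 1.70% and 0.278%.

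A neutrophil-like cell of sgCPT1A with 15839 UMIs and 2390 genes held 754 of the 822 Ngp UMIs (91.7%). It also held 587 of the 1102 Camp UMIs (53.3%) and 237 of the 826 Ltf UMIs (28.7%). The same cell had 239 Lcn2, 188 Anxa1, 74 Retnlg, 57 Ly6g, 18 Cd177 and 2815 S100a8 UMIs, and 5 of Cxcr2. Mpo and Elane, the division genes Mki67 and Top2a, and C1qa, Cd3e and Col1a1, which mark macrophages, T cells and fibroblasts, were all at 0 in it. The sgVC cell with the most UMIs of these genes held 73 Ngp, 25 Camp and 2 Ltf UMIs among 4351. With the richest cell of each library left out, Ngp was at 85.9 CPM in sgVC against 4.94 CPM in sgCPT1A, and its log2 ratio moved from -0.91 to -4.12 (-4.53 to -3.73), 17.4-fold lower. Camp then stood at 12.5 and 37.4 CPM, a log2 ratio of 1.58 (1.08 to 2.12), and Ltf at 15.7 and 42.8 CPM, a log2 ratio of 1.44 (1.00 to 1.92). The directions of all 8 genes were as before. Ngp lay in few cells of sgVC too, where 17 cells held 90.1% of its 313 UMIs. After the cell with 73 Ngp UMIs, the next had 65. The sgVC level and the ratio therefore still rested on few cells, which the counting interval does not cover. Whether the richest sgCPT1A cell is a neutrophil of another stage or more than 1 cell in a droplet was not tested, and the doublet caller did not work in that library.

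**Figure D2:**
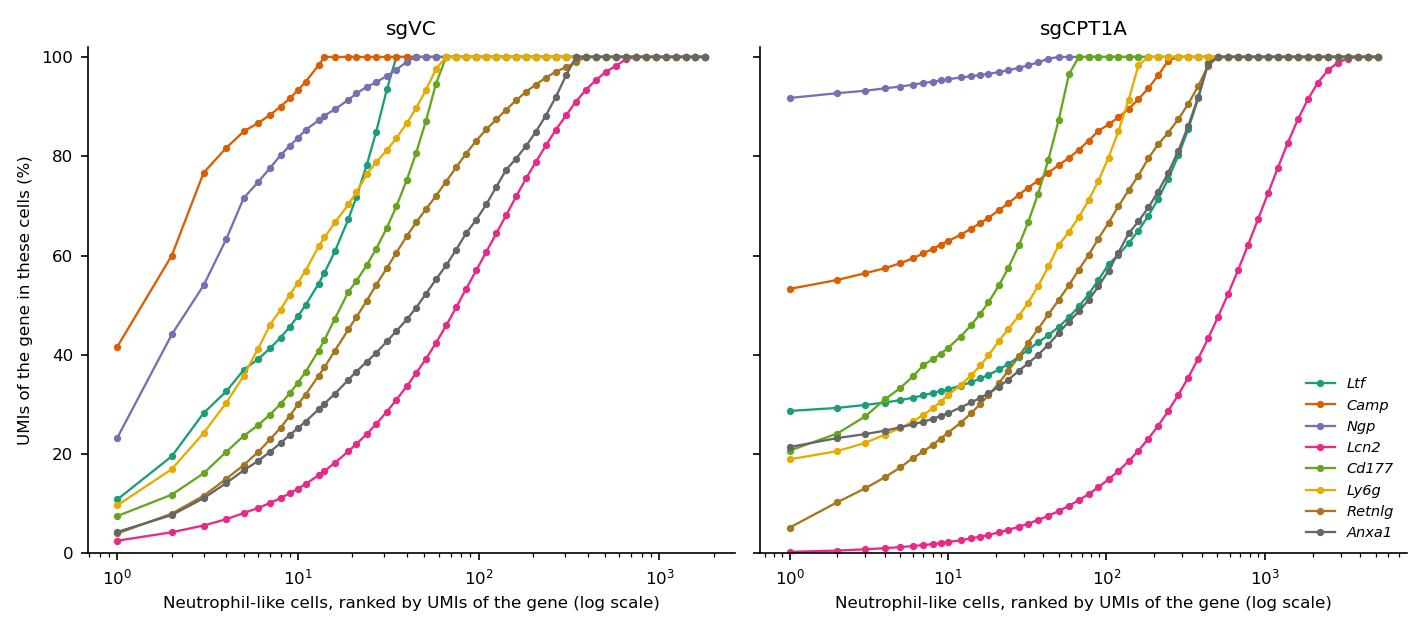
Share of each gene's UMIs (%) held by the neutrophil-like cells with the most of it, against the number of cells (log axis), for the sgVC and the sgCPT1A library. In sgCPT1A the top cell holds 91.7% of Ngp and 53.3% of Camp UMIs, whereas the Lcn2 curve rises slowly over many cells.

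Cd177, a surface and secondary granule protein, was lower in sgCPT1A. It (ENSMUSG00000052212, chromosome 7, 24743983 to 24760311, minus strand) was at 33.2 CPM (93 UMIs in 63 cells) in sgVC and 6.32 CPM (87 UMIs in 61 cells) in sgCPT1A, a log2 ratio of -2.40 (-2.83 to -1.96). One sgCPT1A cell, the one described above, held 18 of the 87 UMIs. After thinning, 2.32% of sgVC and 0.342% of sgCPT1A cells had a UMI.

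The genes of late maturation were lower in sgCPT1A neutrophils. Retnlg (ENSMUSG00000022651, chromosome 16, 48872621 to 48874496, plus strand) had 4044 UMIs in 388 of 1797 sgVC cells, 1445 CPM, and 1427 UMIs in 463 of 5137 sgCPT1A cells, 104 CPM. That is 13.9-fold lower, a log2 ratio of -3.80 (-3.89 to -3.71), the largest of the 8 with all cells kept. Without the richest cell of each library Ngp was further from 0 (-4.12, against -3.84 for Retnlg). Anxa1 (annexin A1, a phospholipid-binding protein that limits neutrophil recruitment; ENSMUSG00000024659, chromosome 19, 20373428 to 20390944, minus strand, overlapped by the antisense gene 1500015L24Rik) was at 305 CPM in sgVC against 63.7 CPM in sgCPT1A, a log2 ratio of -2.26 (-2.40 to -2.12). Ly6g (ENSMUSG00000022582, chromosome 15, 75155240 to 75159126, plus strand), the surface antigen by which mouse neutrophils are usually sorted, was at 58.9 CPM and 21.9 CPM, a log2 ratio of -1.43 (-1.71 to -1.15). Only 62 sgVC and 164 sgCPT1A neutrophil-like cells had a Ly6g UMI, 3.45% and 3.19%. After thinning, Retnlg was in 19.3% of sgVC and 5.01% of sgCPT1A cells, Anxa1 in 15.4% and 3.76%, and Ly6g in 2.52% and 1.52%, so the last interval pair (1.78 to 3.46% and 1.19 to 1.91%) overlapped.

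The wider lists did not move as one. These lists share members with each other and hold all 10 genes. Of 12 secondary granule genes, 4 stood higher in sgCPT1A, 5 lower and 3 in between, and their median log2 ratio was -0.20. Against the 17.3% and 35.4% of all genes, the share lower was near that of all genes, here and in the tertiary and maturation lists. Outside the genes above, the oxidase subunit Cybb was higher (156 and 366 CPM), its partner Cyba was between (428 and 495 CPM), and the collagenase Mmp8 was lower (114 and 23.4 CPM). Of 8 tertiary granule genes, none was higher, 3 were lower (Anxa1, Retnlg and the integrin Itgam) and 5 were between, among them Mmp9 at 396 and 307 CPM and the protease inhibitor Slpi at 1423 and 1257 CPM. Of 11 maturation and surface genes, 1 was higher (the formyl peptide receptor Fpr2, 374 and 681 CPM) and 4 were lower (Ly6g, Retnlg, Anxa1 and Ifitm6), while Cxcr2 was at 388 and 441 CPM and the growth factor receptor Csf3r at 881 and 711 CPM. The median log2 ratios of the tertiary and maturation lists were -0.27 and -0.36, against -0.30 for all genes.

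Of 8 transcription factors and related genes of granulocyte formation, 7 were counted, 2 were higher, 1 lower (Klf5) and 4 between, beside 17.3% higher and 35.4% lower of all genes. The most abundant, Cebpb and Spi1 (PU.1), were at 7314 and 5552 CPM and at 397 and 371 CPM. Cebpa was higher, at 4.64 CPM (13 UMIs) and 13.3 CPM (183 UMIs), and Gfi1 had 0 UMIs in sgVC and 27 in sgCPT1A. Among 5 division genes, Mki67 was higher (8.57 and 32.1 CPM) and the other 4 were lower, Top2a with 19 and 17 UMIs and Birc5 with 19 and 3.

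The 3 neutrophil-like clusters had different shares in the tumours. Cluster 0, led by Retnlg, S100a8 and Cstdc5, held 82.9% of sgVC and 21.7% of sgCPT1A neutrophil-like cells. Cluster 1, led by Il36g, Wfdc21 and Chil1, held 13.1% and 45%, and cluster 3, led by Il36g and the S100a9 and S100a8 pair, 3.95% and 33.3%. Within each cluster Retnlg was lower in sgCPT1A, at 1684 and 328 CPM in cluster 0, 359.9 and 38.6 CPM in cluster 1, and 523 and 67.2 CPM in cluster 3. Anxa1 and Cd177 were lower in all 3 as well, with log2 ratios from -0.77 to -1.86 for Anxa1 and from -1.22 to -3.28 for Cd177, whose interval reached 0.20 in cluster 1.

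Lcn2 did not differ by 1.5-fold in cluster 0, at 1351 CPM in sgVC against 1190.2 CPM in sgCPT1A (log2 ratio -0.18, -0.25 to -0.11). It was higher in cluster 1, at 6511 and 11037 CPM, and in cluster 3, at 1296 and 4407 CPM. In both libraries Lcn2 was therefore at its highest in cluster 1, the cluster with the lowest Cxcr2 (88.1 and 128 CPM). Ly6g was lower in cluster 0 (69.8 and 35.2 CPM) and in cluster 3 (3 UMIs in sgVC, 51 in sgCPT1A, with an interval that includes no difference), and higher in cluster 1 (3 and 159 UMIs). In cluster 0, with the richest cells left out, Ltf was between (16.3 and 22.2 CPM), Camp was lower (14.1 and 3.89 CPM) and Ngp was lower (104 and 4.67 CPM). With that cell kept, all 3 were higher there, Ngp by a log2 ratio of 1.13. The sgCPT1A Camp UMIs outside the richest cell lay mostly in cluster 1, 451 of 515.

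**Figure D3:**
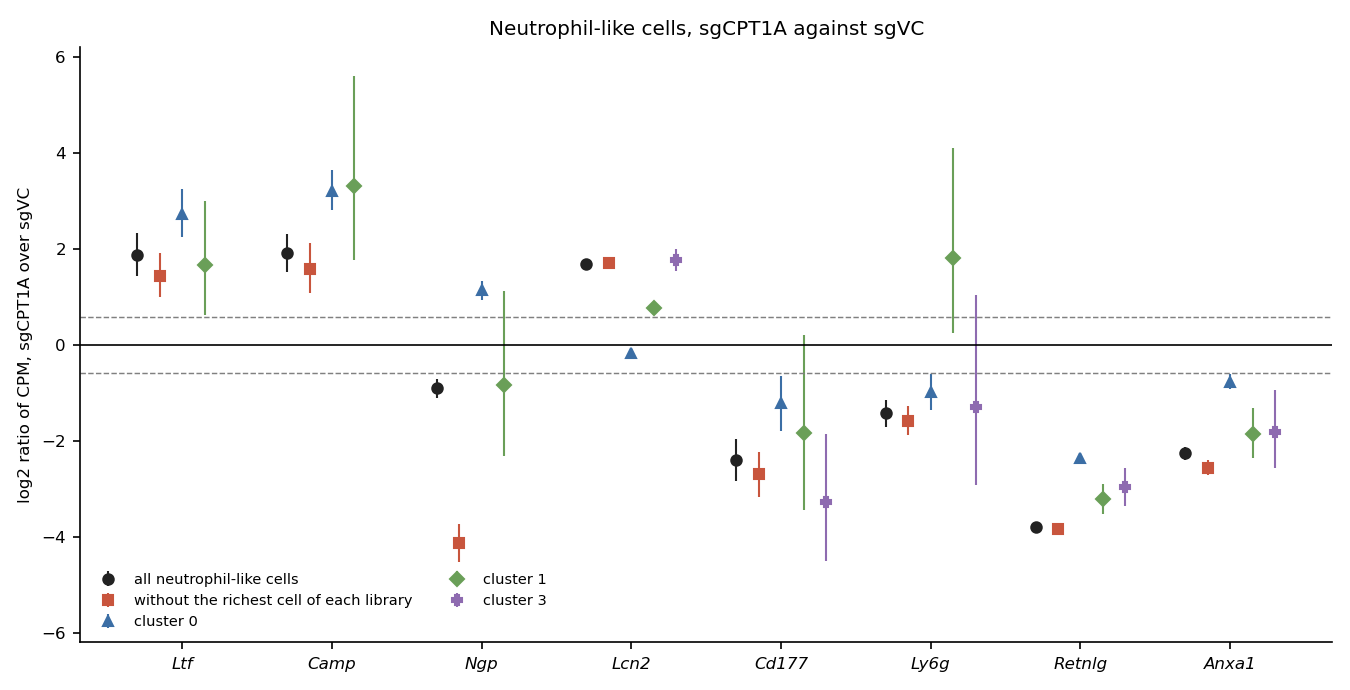
The log2 ratio of summed CPM, sgCPT1A over sgVC, for 8 genes in all neutrophil-like cells, without the richest cell of each library, and within clusters 0, 1 and 3. Bars are exact conditional binomial 95% intervals, dashed lines mark 1.5-fold, and ratios against 0 UMIs are not drawn. Retnlg and Anxa1 lie below 0 in every series, and Ngp moves from -0.91 to -4.12 when the richest cells are left out.

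Cells with at least 3 UMIs of Ltf, Camp and Ngp together were looked at as a group. There were 16 among sgVC neutrophil-like cells (0.890%) and 96 among those of sgCPT1A (1.87%), with median depths of 4652.5 and 3217.5 UMIs, above those of their classes. Because they were picked by these 3 genes, their levels of them are not a result. In sgVC 15 of the 16 had Ngp, 8 had Camp and 6 had Ltf. In sgCPT1A 11 of the 96 had Ngp, 61 had Camp and 51 had Ltf. All 3 genes were present in 4 of the 16 and in 2 of the 96. Which of the 3 genes a cell carried was part of how it was picked, so these counts are a description only.

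Other granule genes in these cells differed between the libraries. With the richest cell of each library left out, Retnlg in the sgVC cells was at 19221 CPM, against 1001 CPM in the other neutrophil-like cells, Anxa1 at 3225 against 228 CPM, Ly6g at 910.0 against 33.7 CPM and Mmp8 at 958 against 92.6 CPM. In the sgCPT1A cells Retnlg was at 272 against 94.1 CPM, Anxa1 at 55.1 against 50 CPM, Ly6g at 21.4 against 17.6 CPM and Mmp8 at 24.5 against 20.0 CPM. So these genes were many times higher in the sgVC cells than in their class, and in the sgCPT1A cells only Retnlg was higher by 1.5-fold. Lcn2 was higher in both sets, at 8988 against 1906 CPM in sgVC and at 12665 against 6543 CPM in sgCPT1A. Cxcr2 was found in 11 of 16 sgVC and 17 of 96 sgCPT1A cells. The division gene Mki67 was at 144 CPM in the sgCPT1A cells (47 UMIs), against 29.4 CPM in the rest. It had 0 UMIs in the 16 sgVC cells, which are too few to show a level like the 8.78 CPM of the rest. The other division genes were not looked at in these sets. Within sgVC, Camp and Ngp shared 8 cells of 14 and 43, where the product of their shares gives 0.335 cells. Within sgCPT1A they shared 6 of 253 and 46, where the product gives 2.27. These overlaps were counted without thinning, and the part that depth has in either was not tested.

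Retnlg, Anxa1 and Cd177 had higher summed levels in cells with a Cxcr2 UMI in both tumours, and Lcn2 had a lower one. At least 1 Cxcr2 UMI was found in 635 of 1797 sgVC neutrophil-like cells (35.3%) and in 2168 of 5137 of sgCPT1A (42.2%), and after thinning in 29.0% and 28.2%. T-like cells had it in 0.747% and 3.29%, and 0.233% and 0.917% after thinning. Detection of a gene depends on depth, and cells with Cxcr2 were slightly deeper than those without, with medians of 1582 and 1393.5 UMIs in sgVC and 2741.5 and 2538 in sgCPT1A. In sgVC, 7 of the 8 genes were higher with Cxcr2 and 1 was lower, while 16.6% of 5510 genes were higher and 11.5% lower. In sgCPT1A, 5 were higher, 1 lower and 2 between, while 21.1% of 8623 genes were higher and 19.7% lower. Of the 11 maturation and surface genes, 7 were higher with Cxcr2 in sgVC and 9 in sgCPT1A, Cxcr2 itself among them, and none was lower. Without the richest cell 1 was lower in sgCPT1A (Ly6g, -0.85). Of 11 counted secondary granule genes, 7 were higher and 3 lower in sgVC, and 6 and 3 in sgCPT1A. The sgCPT1A balance of this list rested on the richest cell described above: without it 4 were higher and 5 lower, and the list's median log2 ratio moved from 0.68 to -0.37. In sgVC without its richest cell 6 were higher and 3 lower.

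Retnlg was at 2553 CPM in sgVC cells with Cxcr2 and 713 CPM in those without, and at 171 and 45.6 CPM in sgCPT1A. The log2 ratios were 1.84 (1.74 to 1.94) and 1.91 (1.73 to 2.09), and their intervals overlapped. Anxa1 was at 509 and 171 CPM in sgVC and at 105 and 28.4 CPM in sgCPT1A, and Cd177 at 61.1 and 14.8 CPM and at 11.1 and 2.16 CPM. These 3 genes were therefore lower in sgCPT1A both among cells with Cxcr2 and among cells without it. For Retnlg the 2 ratios of sgCPT1A to sgVC were -3.90 and -3.97. Without the richest cell, the Anxa1 log2 ratio in sgCPT1A was 1.41 in place of 1.88. After thinning, the sgVC shares of cells with a UMI had overlapping intervals for each of these genes. For Retnlg they were 21.6% (17.8 to 25.8%) with Cxcr2 and 18.3% (16.0 to 20.8%) without. Anxa1 was in 19.2% and 13.8%, and Cd177 in 3.52% and 1.82%. In sgCPT1A the shares were 9.10% and 3.40% for Retnlg, 6.45% and 2.71% for Anxa1, and 0.759% and 0.179% for Cd177. There only the Cd177 intervals overlapped.

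Lcn2 went the other way. It was at 1401 CPM with Cxcr2 and 2529 CPM without in sgVC, a log2 ratio of -0.85 (-0.94 to -0.77). In sgCPT1A it was at 2801 and 10061 CPM, a log2 ratio of -1.84 (-1.87 to -1.82). The share of thinned cells with a Lcn2 UMI was 28.4% with Cxcr2 and 37.8% without in sgVC, and 37.4% and 75.1% in sgCPT1A. Both sgCPT1A levels were above the sgVC level of the same Cxcr2 state.

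With all cells kept, Camp and Ngp were higher with Cxcr2 in both libraries, and Ly6g in sgVC only. Ly6g was at 116 CPM with Cxcr2 and 21.4 CPM without in sgVC, and at 21.3 and 22.3 CPM in sgCPT1A. Camp was at 48.5 and 3.56 CPM in sgVC and at 100.1 and 62.6 CPM in sgCPT1A. Ngp was at 249 and 21.4 CPM in sgVC and at 123 and 5.0 CPM in sgCPT1A. Ltf was at 20.7 and 13.6 CPM in sgVC, 1.51-fold on 23 UMIs each with an interval that includes no difference, and at 65.5 and 55.2 CPM in sgCPT1A. The richest sgCPT1A cell had Cxcr2, and without it Camp in cells with Cxcr2 was at 8.17 CPM, Ngp at 4.87 CPM, Ltf at 28.4 CPM and Ly6g at 12.4 CPM. Then 3 genes were higher with Cxcr2 in sgCPT1A (Cd177, Retnlg and Anxa1), 4 lower (Ltf, Camp, Lcn2 and Ly6g) and 1 between (Ngp). In sgVC, leaving out the richest cell moved Ltf to between and Camp from 13.6-fold to 7.35-fold. The 29 Camp UMIs then left in sgVC cells with Cxcr2 included 11 in a single cell and 10 in another. In sgVC, Camp was found in 1.26% of cells with Cxcr2 and 0.516% of those without, and Ngp in 3.78% and 1.64%. After thinning the Camp shares were 0.469% (0.0569 to 1.69%) and 0.576% (0.212 to 1.25%), and the Ngp shares 1.88% (0.814 to 3.67%) and 1.63% (0.953 to 2.60%). The thinned intervals overlap, and a difference in the share of cells was not detectable at that depth.

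**Figure D4:**
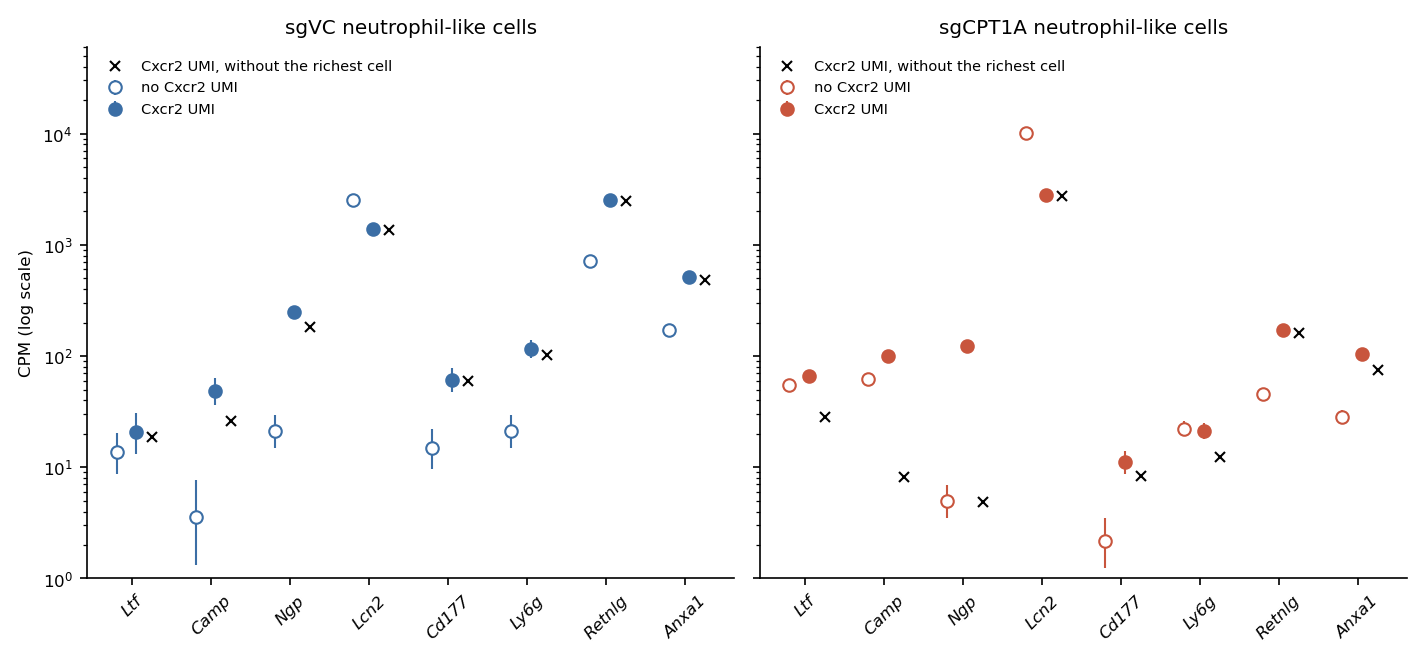
Summed CPM (log axis) of 8 genes in neutrophil-like cells with a Cxcr2 UMI (filled) and without one (open), in sgVC and in sgCPT1A, with exact Poisson 95% intervals. Crosses give the level in cells with Cxcr2 when the richest cell of the library is left out. Lcn2 is the gene that is lower with Cxcr2 in both libraries, and the sgCPT1A crosses of Camp and Ngp stand at 8.17 and 4.87 CPM.

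Apart from Anxa1 and Lcn2, the genes were scarce in macrophages. In sgVC, 7 of 8 counted genes were higher in neutrophil-like than in monocyte and macrophage-like cells, while 16.0% of 11068 genes were higher and 65.9% lower. In sgCPT1A, 6 were higher, 1 lower (Anxa1) and 1 between (Cd177), while 19.8% of 10284 genes were higher and 61.6% lower. Retnlg was at 5.27 CPM in sgVC against 3.85 CPM in sgCPT1A macrophage-like cells, Ly6g at 0.322 and 1.45 CPM, and Ngp at 0.107 and 0 CPM, where a 0 allows 1.45 CPM. T-like cells had Retnlg at 1.03 and 1.14 CPM and no Ly6g UMI. Camp was at 0 in sgVC macrophage-like cells, so the neutrophil level was at least 66.5-fold higher against 3 counts over the class. Between the macrophages of both tumours, 2 of the 4 genes that could be counted were higher in sgCPT1A (Lcn2 and Cd177), while 14.9% of 11014 genes were higher and 24.6% lower. Cxcr2 was at 4.94 and 22.2 CPM in macrophages and at 1.81 and 13.4 CPM in T-like cells. Of 8 tertiary granule genes 4 were higher in sgCPT1A macrophages and 1 lower, with Mmp9 at 302 and 1309 CPM and Slpi at 354 and 863 CPM, and the part of neutrophil RNA in these levels was not tested.

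Macrophage Lcn2 was at 24.9 CPM in sgVC against 187 CPM in sgCPT1A, a log2 ratio of 2.91 (2.67 to 3.15). T-like cells had 26.3 and 179 CPM, about the same levels, and S100a8 in macrophages was at 174 and 612 CPM. Macrophage Cd177 was at 2.69 CPM (25 UMIs in 23 cells) and 7.23 CPM (15 UMIs in 8 cells), while T-like cells had 1 and 0 UMIs. In sgCPT1A the neutrophil level of Cd177, 6.32 CPM, differed from the macrophage level by a log2 ratio of -0.19 (-0.99 to 0.70). Macrophage Anxa1 did not differ by 1.5-fold, at 266 and 299 CPM, with T-like cells at 81.3 and 78.7 CPM and fibroblast-like cells at 379 and 348 CPM. So neutrophil-like Anxa1 stood between macrophages and fibroblasts in sgVC, at 305 CPM, and below all these classes in sgCPT1A, at 63.7 CPM. Lcn2 was not a gene of neutrophils alone: fibroblast-like cells had 496 and 889 CPM, and tumour-like cells 848 CPM in sgVC and 1478 CPM in sgCPT1A. The tumour-like values come from different clusters, and 1 sgCPT1A cell of cluster 4 held 856 of that library's 1715 UMIs. In cluster 10 alone Lcn2 was at 228 CPM in sgVC against 677 CPM in sgCPT1A. Neutrophil-like cells had the most Lcn2 of these classes in both libraries.

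The genes whose level over the clusters was most like that of a given gene were listed for 7 of the 10. The measure was Pearson's r of log2(CPM + 1) over 5 points, the neutrophil clusters with at least 100 cells in each library, and 3959 genes were compared. The points share 2 libraries, and among so many genes a very high r over 5 points is common. For Lcn2 the first 3 were Hivep2, Ciapin1 and Irak3 (r from 0.997 to 1.000), and for Retnlg they were Inpp4a, Flot1 and Mier1 (r = 0.996 each). None of the listed granule genes was among the first 3 of any member.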

How the data were processed

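Whole tumours were dissociated and measured by 10x Genomics 3′ single-cell sequencing. Deposited values are the authors' raw UMI counts, made with Cell Ranger 7.1.0 per the file headers. Seurat 4.1.0 and the build GRCm38 are named per the submitters' processing notes, and the annotation release is not given in the sources used here. Coordinates are from GENCODE M21 on GRCm38, which matched 52081 of 55357 gene identifiers. It is not known whether reads of the further sgCPT1A sample are in the sgCPT1A matrix.

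Barcodes under 200 genes or over 20% mitochondrial UMIs were dropped, 280 of sgVC and 455 of sgCPT1A. The 291 doublets that Scrublet found in sgVC were dropped as well. In sgCPT1A it found 1 (0.0148%), so it was taken not to have worked there. Both libraries were clustered together (10000 UMIs per cell, log1p, 2000 variable genes, 30 components, 15 neighbours, Leiden resolution 1; scanpy 1.11.5). A cluster was named from at least 3 markers, each in at least 10% of its cells and at a level at least 2-fold that of the median cluster. UMIs were summed per class and divided by the class total (CPM). Intervals are exact Poisson for levels, Clopper-Pearson for shares and conditional binomial for ratios, and UMIs of 1 library measure no spread between tumours. The interval code was tested on simulated data. The 10 genes and the gene lists were chosen with earlier results of these data known. Values from each list were named for its 2 most abundant genes and its 2 largest ratios, with a few more chosen after their values were seen (Prtn3, Ctsg, Cybb, Itgam, Ifitm6, Klf5, Mmp9, Cxcr2 and Mmp8 within cells).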

Additional observations from a re-analysis of the deposited data

Results flagged for a closer look

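Cd177 had opposite differences in 2 cell classes. Its log2 ratio of sgCPT1A to sgVC was -2.40 in neutrophil-like cells and 1.43 in monocyte and macrophage-like cells (0.40 to 2.41, on 15 and 25 UMIs), and both counting intervals left out 0. The difference between the classes was not tested, since each group had 1 library.

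With the richest cell of each library left out, Camp and Ly6g had opposite differences by Cxcr2 in the 2 tumours. Camp had a log2 ratio of cells with Cxcr2 to cells without it of 2.88 in sgVC and -2.94 in sgCPT1A, and Ly6g of 2.25 and -0.85. These differences between libraries were not tested either. In sgVC the Camp value rested on 29 and 6 UMIs. Of the 29, 11 lay in a single cell and 10 in another.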

How the results depend on the processing

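Alternatives were a minimum of 500 genes, at most 10% mitochondrial UMIs, doublets kept, Leiden resolutions 0.5 and 2, the 10 genes kept among the variable genes, each library clustered alone, centring on the median gene, equal weight for each cell, thinning to 1000 or 500 UMIs, subtraction of the T-like level, a Cxcr2 call at 2 UMIs, cluster 0 alone, no low-count filter and, chosen after seeing the data, leaving out the richest cell of each library. The count of genes higher in sgCPT1A neutrophils was 3, or 4 with each library clustered alone, but these were not always Ltf, Camp and Lcn2: within cluster 0 they were Ltf, Camp and Ngp, and there, without the richest cells, 0 were higher and 6 lower. With each library clustered alone, 3 in place of 5 genes were lower in sgCPT1A neutrophils, 0 in place of 1 was lower with Cxcr2 in sgVC, and Ngp was higher in sgCPT1A (log2 ratio 1.21). That setting named 2297 sgCPT1A cells neutrophil-like, against 5137, and left 2826 unnamed. With equal weight for each cell, 4 in place of 1 gene were lower with Cxcr2 in sgCPT1A, and Camp turned to -1.31 there. After thinning to 1000 or 500 UMIs, 3 genes were higher and 5 lower with Cxcr2 in sgCPT1A, and 2 were lower in sgVC. At 1000 UMIs Ltf turned to -1.01 in sgVC, and Camp and Ngp to -3.41 and -2.21 in sgCPT1A. At 500 UMIs Cd177 turned to -1.59 in sgVC and Ngp to -1.95 in sgCPT1A, and 3 genes were higher in sgCPT1A neutrophils than macrophages. With a Cxcr2 call at 2 UMIs, 0 genes were lower with Cxcr2 in sgVC. Within cluster 0, Ngp turned to 1.13 and Lcn2 to -0.18 for sgCPT1A against sgVC. Without the richest cells, 3 genes were higher and 4 lower with Cxcr2 in sgCPT1A, and Camp and Ngp turned to -2.94 and -0.039. Fewer UMIs are left after thinning and fewer cells within a cluster. The cause of the changes was not tested for any setting. No paired analysis was possible because each group had 1 library. Depth limits Ltf, Camp, Ngp, Cd177 and Ly6g, which had 46 to 313 UMIs in sgVC neutrophil-like cells.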

Other observations

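Ltf was also found outside neutrophils. In cluster 10 of the tumour-like cells, led by Igkc, Krt19, Ptn and Prlr, 11 of 122 sgCPT1A cells held 518 Ltf UMIs (496 CPM), 211 of them in 1 cell. The same cluster in sgVC had 14 Ltf UMIs in 3 of 192 cells (20.2 CPM). Camp had 1 and 0 UMIs and Ngp 0 in both, while the epithelial genes Epcam and Krt19 were at 1194 and 2565 CPM in sgCPT1A and at 519.5 and 821 CPM in sgVC, and the milk casein Csn3 at 143 and 2.89 CPM. Lactoferrin is known from mammary epithelium and milk as well as from neutrophils.

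Camp had 38 UMIs in 23 of 515 fibroblast-like cells of sgCPT1A (3.05 CPM) and 3 UMIs in sgVC (0.499 CPM), beside 0 UMIs in T-like cells of either library. Mpo had 12 and 8 UMIs in the fibroblast-like cells of sgCPT1A and sgVC, 0.963 and 1.33 CPM. Neutrophil-like cells had 2 and 0 UMIs, 0.145 and 0 CPM, and the counting intervals of both classes overlapped in each library.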
